A study of Mus musculus with 23 samples.

Results

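The glucocorticoid system of the mouse hippocampus was followed through 10 genes of the 24421 rows of the count table. These 10 were listed by symbol, with earlier results of these data known. They were the glucocorticoid receptor Nr3c1, the mineralocorticoid receptor Nr3c2, the enzyme Hsd11b1, the receptor inhibitor Fkbp5, and the response genes Tsc22d3, Sgk1, Per1, Zbtb16, Ddit4 and Cdkn1a. All 10 had a row, and all 10 were among the 15475 genes that passed the low-count filter. Polyadenylated RNA was sequenced from hippocampi of mouse pups on postnatal day 14, in 23 libraries of 6 groups. The groups were severe phlebotomy-induced anemia (sPIA, 4 females and 4 males), moderate phlebotomy-induced anemia (mPIA, 4 females and 4 males) and non-bled controls (NBC, 4 females and 3 males). From postnatal day 3, anemic pups lost 5.25 µl of blood per g of body weight at each of the daily pair of draws. When the haematocrit had come down to 18% (sPIA) or 25% (mPIA), a single daily draw of 3.5 µl per g followed. NBC pups were pricked with a needle at the nape and not bled, with strain and genotype not given in the sources used here. The bleeding, the handling and the anemia came together in the anemic groups, and blood corticosterone and the haematocrit of single pups are not among the data used here.

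Corticosterone, the main glucocorticoid of mice, acts in hippocampal neurons through a pair of related nuclear receptors. The mineralocorticoid receptor binds the hormone with high affinity and is largely occupied at rest, whereas the glucocorticoid receptor binds it less tightly and fills during stress and at the daily peak. Hsd11b1 regenerates active hormone inside cells, the cochaperone Fkbp5 holds the receptor in a state of low affinity, and the bound receptor moves to the nucleus and raises genes such as Tsc22d3, Per1 and Sgk1.

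A promoter search was made because the receptor binds a palindrome of a pair of short arms. RefSeq promoter windows (GRCm38.p6, each with 250 bases before and 50 after a transcription start site) were matched by symbol for 8 of the 10 genes, with 17 windows in all, and Nr3c1 and Zbtb16 were not matched. The motifs searched on both strands were the palindromic element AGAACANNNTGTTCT, a single arm of it, AGAACA, the E-box CACGTG that clock proteins bind, and the cAMP response element TGACGTCA. The palindrome stood in 3 of 32851 windows of all genes (0.00913%), and a window of Sgk1 was among these 3. The single arm stood in 19% of all windows, the E-box in 7.15% and the cAMP response element in 1.79%, and none of the 17 windows held the last of these. Arms of a palindrome were also counted as single arms. The following windows are shown because Sgk1 held the palindrome, Per1 had the largest change of the 10 genes, and Tsc22d3 was called lower in both sexes. Capitals mark the matches. In Sgk1 (chr10:21993640-21993939, plus strand) the palindrome began at position -189 from the start site, and an E-box at -246 overlapped a single arm at -242. In Per1 (chr11:69098699-69098998, plus strand) an E-box began at position -166. In Tsc22d3 (chrX:140600473-140600772, minus strand) a single arm began at position -185.
Sgk1: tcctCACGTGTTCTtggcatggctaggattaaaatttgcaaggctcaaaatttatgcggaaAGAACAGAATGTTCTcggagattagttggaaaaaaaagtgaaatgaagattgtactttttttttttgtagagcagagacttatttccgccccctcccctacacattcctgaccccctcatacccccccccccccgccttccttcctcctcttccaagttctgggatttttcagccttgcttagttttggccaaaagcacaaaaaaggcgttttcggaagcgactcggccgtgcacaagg
Per1: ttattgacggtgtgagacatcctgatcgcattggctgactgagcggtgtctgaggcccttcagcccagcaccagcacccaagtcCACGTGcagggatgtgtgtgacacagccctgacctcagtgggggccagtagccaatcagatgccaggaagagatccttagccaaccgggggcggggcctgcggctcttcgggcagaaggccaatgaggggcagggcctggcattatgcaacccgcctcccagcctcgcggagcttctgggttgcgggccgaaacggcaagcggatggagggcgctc
Tsc22d3: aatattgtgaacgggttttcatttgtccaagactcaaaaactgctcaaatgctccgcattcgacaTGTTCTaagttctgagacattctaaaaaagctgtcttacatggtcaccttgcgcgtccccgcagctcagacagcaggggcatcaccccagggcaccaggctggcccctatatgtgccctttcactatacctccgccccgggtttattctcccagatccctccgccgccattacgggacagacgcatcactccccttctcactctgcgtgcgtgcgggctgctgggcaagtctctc
A match describes these letters and does not show that a factor binds there, and windows without a match say nothing about sites elsewhere.

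Libraries held 15234793 to 26355712 counts, apart from mPIA female 3 with 44362539. Every gene followed here had at least 213 counts in each library. Levels below are CPM (counts scaled to a common library size), and differences were tested with edgeR's quasi-likelihood test. Log2 changes are given with their standard error (SE) or a 95% interval, and adjusted p-values run over all 15475 genes, with 0.05 as the threshold. Libraries were read as separate pups, since the design names 4 males and 4 females per group. Per kilobase of exon, the order of the median levels over the 23 libraries was Ddit4 (37.8 CPM per kb), Nr3c2 (21.8), Tsc22d3 (15.4), Sgk1 (14.32), Nr3c1 (13.9), Per1 (13), Zbtb16 (9.21), Hsd11b1 (7.92), Fkbp5 (6.79) and Cdkn1a (4.17). The highest library exceeded the lowest by 1.45-fold for Nr3c1, the steadiest of the 10, and by 2.05-fold for Cdkn1a.

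Some properties of the libraries ran along with the groups. The rank correlation of a library's deviations with gene GC content was -0.44 to 0.03 in sPIA females, 0.15 to 0.47 in mPIA females and 0.18 to 0.55 in NBC females. In males it was -0.4 to -0.08 in sPIA, -0.1 to 0.3 in mPIA and -0.26 to 0.02 in NBC. GC content of the genes followed ran between 42.2% (Nr3c1) and 59.4% (Per1), so values from a fit that removed such trends with GC content and gene length (called GC-corrected below) stand beside the results that they move. The library codes in the labels, whose meaning is not stated, open with P in all sPIA libraries and in NBC males, with M in mPIA males and with a number in mPIA and NBC females. Their S numbers form a run of their own in the sPIA libraries, which cannot be told apart from severe anemia in any comparison with sPIA. The opening of the code cannot be told apart from severe anemia in females, from the anemia level in sPIA against mPIA males and in mPIA against NBC males, or from sex in NBC females against NBC males. In sPIA against NBC males the opening is the same and the S numbers differ. The tests of sex differences below are built on these comparisons. Markers of the choroid plexus, which borders the hippocampus, summed to 144, 3490 and 6520 CPM in NBC males 2, 3 and 4, and to at most 360 CPM in the 8 anemic males. They reached 1970 CPM in sPIA female 2 and 2520 CPM in NBC female 2. Neuronal markers were present in every library, and 4 of the 7 blood cell markers, among them haemoglobin genes, were at 0 in all.

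**Figure D1:**
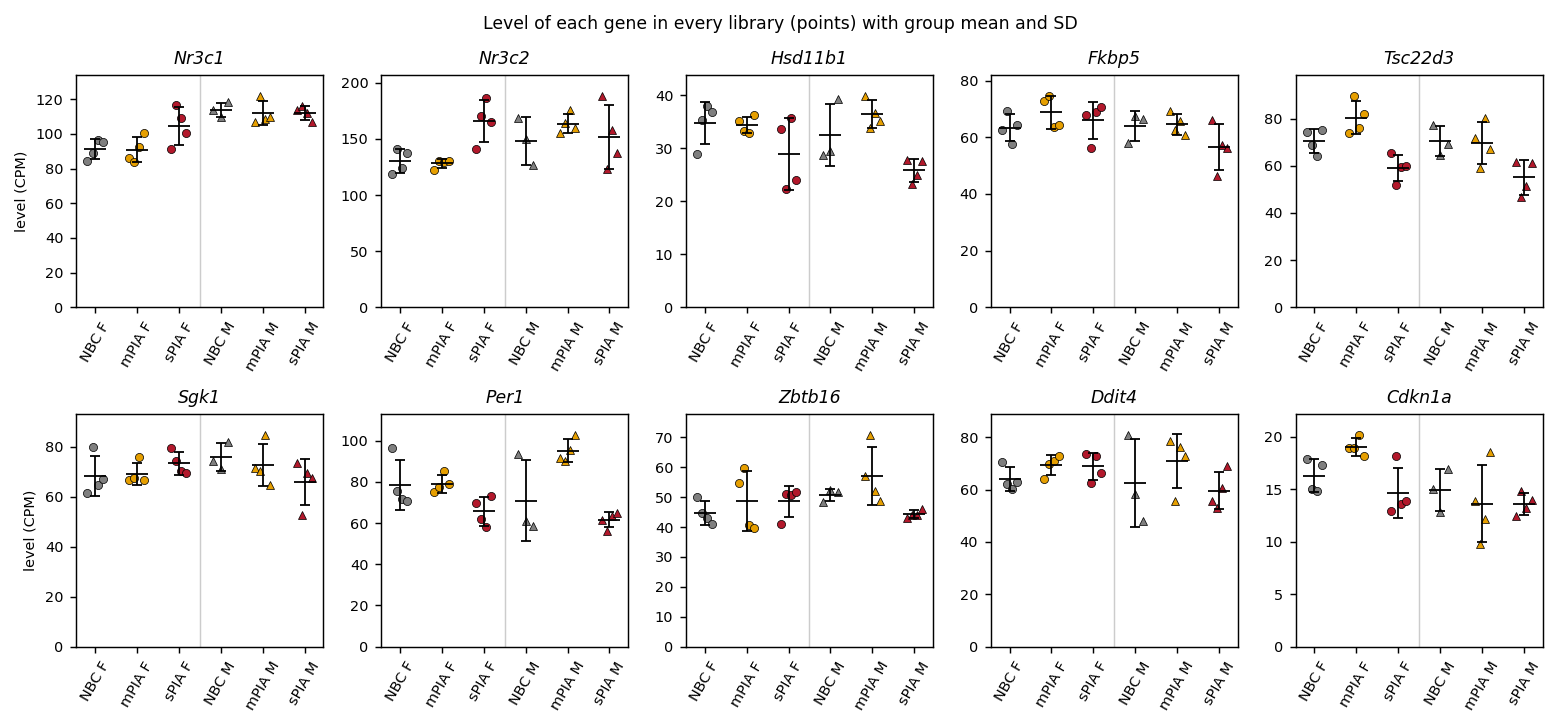
Level in CPM (vertical axes, starting at 0) of each of the 10 genes in every library, with circles for females (F), triangles for males (M) and a bar for the group mean with its SD. Nr3c2 stands higher in sPIA females than in mPIA females, and Tsc22d3, Per1 and Hsd11b1 stand lower in sPIA males than in mPIA males, with Tsc22d3 overlapping at its edge.

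Between severe and moderate anemia 3 of the 10 genes passed in each sex, and 0 passed between moderate anemia and NBC as tested with edgeR. In sPIA against mPIA females, Nr3c1 and Nr3c2 were higher and Tsc22d3 lower, where 16.1% of all genes tested passed, so that the count in females is not read as particular to these genes. In sPIA against mPIA males, Tsc22d3, Per1 and Hsd11b1 were all lower, where 4.92% of all genes passed. Tsc22d3 was thus called lower in both sexes. These comparisons share no library, but in both the S numbers of the codes run with severe anemia. Some code openings also recur between the sexes, with P11 and P14 in sPIA females and males. In mPIA, 90 and 91 in females recur as M90 and M91 in males. Whether these mark a shared origin is not stated. The male call of Tsc22d3 passed in 3 of 8 fits with a library left out.

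Against NBC, 1 of the 10 genes passed in sPIA females (Nr3c2, higher), where 16% of all genes passed. This count is therefore not read as particular to these genes. In sPIA males 0 of 10 passed, where 0.194% of all genes passed, and DESeq2 called 0 of the 10. There 2 members were under an unadjusted p of 0.05, beside 1880 of 15475 genes. In mPIA females 0 of 10 passed, where 0.00646% of all genes (1 gene) passed, and DESeq2 called 0 of the 10. There 0 members were under an unadjusted p of 0.05, beside 55 of 15475 genes. In mPIA males 0 of 10 passed, where 0.653% of all genes passed. There 1 member (Per1) was under an unadjusted p of 0.05, beside 2475 of 15475 genes, and DESeq2 called the same gene. The sPIA comparisons with mPIA and with NBC share the sPIA libraries, and those with NBC share the NBC libraries. The median log2 change of the 10 genes was -0.22 for sPIA against mPIA males and -0.03 for sPIA against mPIA females, beside 0 over all genes in both.

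**Figure D2:**
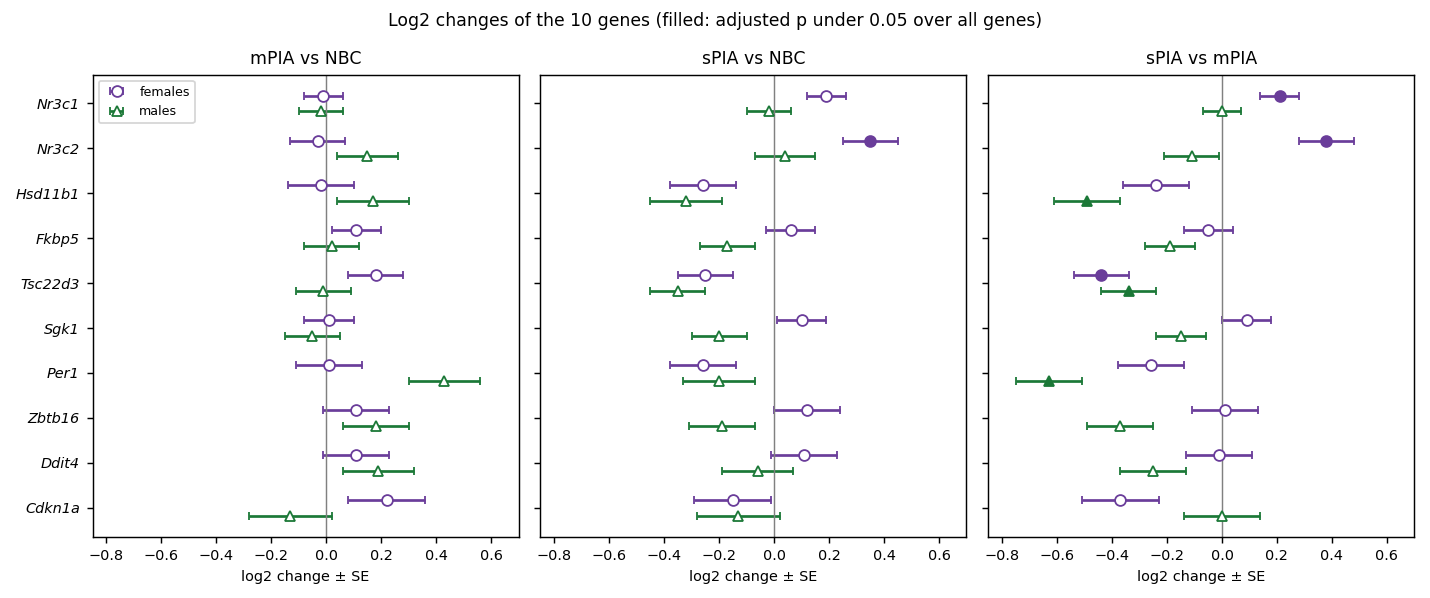
Log2 change with SE (horizontal axes) of the 10 genes in mPIA against NBC, sPIA against NBC and sPIA against mPIA, in females (circles) and males (triangles), with filled symbols where the edgeR adjusted p was under 0.05. Filled symbols stand at Nr3c1, Nr3c2 and Tsc22d3 in females and at Hsd11b1, Tsc22d3 and Per1 in males for sPIA against mPIA, and at Nr3c2 alone for sPIA against NBC females.

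The mineralocorticoid receptor Nr3c2 (GRCm38 chromosome 8, 76899442 to 77245012, plus strand) was called higher in sPIA females against both other female groups, and stood clear of mPIA females only. It had 140.9, 170.6, 186.6 and 164.9 CPM in sPIA females, 122.3, 130.1, 129.7 and 130.4 CPM in mPIA females, and 118.9, 141, 123.8 and 137.6 CPM in NBC females. All sPIA females lay above all mPIA females, and sPIA female 1 lay just below NBC female 2. This was a log2 change of 0.38 (SE 0.10, edgeR adjusted p = 0.0128) for sPIA against mPIA females, and 0.35 (SE 0.10, edgeR adjusted p = 0.0218) for sPIA against NBC females. After GC correction the change against mPIA females was 0.33 (edgeR adjusted p = 0.0471), and that against NBC females was 0.31 (edgeR adjusted p = 0.0759). The call against NBC females was also lost without NBC female 1 or 3 or without sPIA female 2 or 3 (edgeR adjusted p = 0.0789, 0.0614, 0.0512 and 0.0924), and that against mPIA females without sPIA female 3 (edgeR adjusted p = 0.0596).

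In males Nr3c2 spread more widely within groups. It had 189, 123, 158 and 137 CPM in sPIA males, 155, 164, 176 and 160 CPM in mPIA males, and 169, 150 and 127 CPM in NBC males. The sPIA males held both the highest and the lowest value of all males, and no pair of male groups was separate. On the log2 scale the change was -0.11 (95% interval -0.31 to 0.09) for sPIA against mPIA males and 0.04 (-0.18 to 0.25) for sPIA against NBC males. The annotation places a noncoding RNA, Gm10649, on the opposite strand, sharing 247 exon bases with Nr3c2, with the strand setting not given in the sources used here.

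The glucocorticoid receptor Nr3c1 (GRCm38 chromosome 18, 39410545 to 39519421, minus strand) showed a smaller difference in the same female comparison. It had 91, 117, 109 and 100.5 CPM in sPIA females, 86.28, 84.01, 92.66 and 100.3 CPM in mPIA females, and 84.1, 89.2, 96.6 and 95.5 CPM in NBC females. The groups overlapped through sPIA female 1. The sPIA females 2, 3 and 4 lay above every mPIA and NBC female, with sPIA female 4 only just above mPIA female 4. The log2 change was 0.21 (SE 0.07, edgeR adjusted p = 0.0464) for sPIA against mPIA females and 0.19 (SE 0.07, edgeR adjusted p = 0.064) for sPIA against NBC females. GC correction brought the first of these to 0.05 (edgeR adjusted p = 0.651), and leaving out a library ended the call in 6 of 8 cases (edgeR adjusted p up to 0.188, without sPIA female 2).

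Nr3c1 in males was steady across anemia levels. It had 114, 116, 112 and 107 CPM in sPIA males, 107, 122, 109 and 110 CPM in mPIA males, and 114, 110 and 118 CPM in NBC males. These ranges overlapped, with a log2 change of -0.02 (95% interval -0.17 to 0.13) for sPIA against NBC males and 0 (-0.14 to 0.14) for sPIA against mPIA males. NBC females lay below NBC males without overlap, with a log2 change of -0.32 (SE 0.08, edgeR adjusted p = 0.0114), and Nr3c1 was the only 1 of the 10 genes to pass there, where 10.1% of all genes passed and where the library code series run with sex. After GC correction this was -0.18 (edgeR adjusted p = 0.0979), and without NBC male 4, the library with the most choroid plexus RNA, it was -0.29 (edgeR adjusted p = 0.07). With a choroid plexus score as covariate, 1 of the 10 genes was called in this comparison, as without the score. Over all genes that fit called 721, against 1570 without the score.

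The balance of the receptors was described as Nr3c2 counts over Nr3c1 counts, uncorrected for length and therefore comparable between groups only. The ratio was 1.59 ± 0.106 in sPIA females, 1.42 ± 0.102 in mPIA females and 1.43 ± 0.123 in NBC females (SD, n = 4 each). In males it was 1.35 ± 0.249 in sPIA (n = 4), 1.47 ± 0.113 in mPIA (n = 4) and 1.31 ± 0.214 in NBC (n = 3). The female ranges overlapped, with sPIA females between 1.46 and 1.71, mPIA females between 1.3 and 1.55 and NBC females between 1.28 and 1.58.

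Hsd11b1 (GRCm38 chromosome 1, 193221634 to 193264075, minus strand), the reductase that turns 11-dehydrocorticosterone back into corticosterone, was lower in severe than in moderate anemia in males. It had 27.8, 23.2, 25 and 27.5 CPM in sPIA males, 39.95, 33.79, 36.72 and 35.17 CPM in mPIA males, and 28.8, 29.5 and 39.3 CPM in NBC males. All sPIA males lay below all mPIA and all NBC males. This was a log2 change of -0.49 (SE 0.12, edgeR adjusted p = 0.0249) for sPIA against mPIA males and -0.32 (SE 0.13, edgeR adjusted p = 0.324) for sPIA against NBC males. The first was -0.59 after GC correction (edgeR adjusted p = 0.00832), while without mPIA male 1 or sPIA male 2 the call was lost (edgeR adjusted p = 0.0807 and 0.0785).

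Hsd11b1 in females had 33.7, 22.2, 35.8 and 24.1 CPM in sPIA, 35.1, 33.3, 32.9 and 36.3 CPM in mPIA, and 29, 35.3, 38 and 36.8 CPM in NBC. Here sPIA females 2 and 4 were low and sPIA females 1 and 3 lay among the other groups. On the log2 scale the change was -0.24 (95% interval -0.48 to 0) for sPIA against mPIA females and did not pass (edgeR adjusted p = 0.197).

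Fkbp5 (GRCm38 chromosome 17, 28399094 to 28517527, minus strand), itself raised by the glucocorticoid receptor that it restrains and thus part of a feedback loop, did not pass in any comparison. It had 68, 56.3, 69.1 and 70.7 CPM in sPIA females, 72.7, 74.7, 63.5 and 64.3 CPM in mPIA females, and 62.5, 69.4, 57.6 and 64.3 CPM in NBC females. In males it had 66.1, 46.5, 57.5 and 56.2 CPM in sPIA, 69.2, 62.5, 65.9 and 61 CPM in mPIA, and 58, 67.6 and 66.5 CPM in NBC. All groups overlapped, and sPIA male 2 was the lowest of the 23 libraries. The log2 change was -0.19 (95% interval -0.37 to -0.02, edgeR adjusted p = 0.202) for sPIA against mPIA males and -0.05 (-0.23 to 0.12) for sPIA against mPIA females.

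Tsc22d3 (GRCm38 chromosome X, 140539528 to 140600659, minus strand), also called GILZ, encodes a leucine zipper protein induced by glucocorticoids that curbs inflammatory transcription. It had 65.4, 51.7, 59.4 and 59.9 CPM in sPIA females, 73.8, 89.7, 76.2 and 81.8 CPM in mPIA females, and 74.3, 68.9, 64.2 and 75.1 CPM in NBC females. All sPIA females lay below all mPIA females, and sPIA female 1 lay above NBC female 3. This was a log2 change of -0.44 (SE 0.10, edgeR adjusted p = 0.00259) for sPIA against mPIA females and -0.25 (SE 0.10, edgeR adjusted p = 0.0754) for sPIA against NBC females. The change against mPIA females was -0.45 after GC correction (edgeR adjusted p = 0.00383), and the gene passed with each of the 8 libraries left out in turn.

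In males Tsc22d3 had 61.4, 46.6, 51.5 and 61.1 CPM in sPIA, 71.9, 59.2, 80.3 and 66.9 CPM in mPIA, and 77.2, 64.7 and 69.3 CPM in NBC. The sPIA males lay below all NBC males, and mPIA male 2 lay among the sPIA males. On the log2 scale the change was -0.34 (SE 0.10, edgeR adjusted p = 0.0425) for sPIA against mPIA males and -0.35 (SE 0.10, edgeR adjusted p = 0.155) for sPIA against NBC males. The male call was close to the threshold: after GC correction it was -0.37 (edgeR adjusted p = 0.05, just above the threshold), and leaving out a library ended it in 5 of 8 cases. It was also lost with only the groups compared (-0.33, edgeR adjusted p = 0.0994) and with a choroid plexus score as a covariate (-0.31, edgeR adjusted p = 0.0659).

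Per1 (GRCm38 chromosome 11, 69095217 to 69109960, plus strand), a clock repressor that glucocorticoids also raise directly, had the largest change of the 10 genes. It had 61.7, 56.4, 63.6 and 64.8 CPM in sPIA males, 91.86, 90.09, 95.56 and 102.8 CPM in mPIA males, and 93.5, 61 and 58.4 CPM in NBC males. The sPIA males lay well below all mPIA males, while NBC males 3 and 4 lay among the sPIA males and NBC male 2 among the mPIA males. The log2 change was -0.63 (SE 0.12, edgeR adjusted p = 0.00535) for sPIA against mPIA males, which put Per1 at rank 45 of 15475 genes by p. GC correction gave -0.46 (edgeR adjusted p = 0.00849), and the gene passed with each of the 8 libraries left out in turn.

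The comparisons of Per1 with NBC males depended on NBC male 2. The change was 0.43 on the log2 scale (SE 0.13, edgeR adjusted p = 0.0931) for mPIA against NBC males, and without NBC male 2 it was 0.68 (edgeR adjusted p = 0.000427). That library also held the highest Ddit4 level of the 23 libraries and, of the NBC males, the lowest sum of choroid plexus markers. With a choroid plexus score as covariate, 0 members were called for mPIA against NBC males, as without the score. Over all genes that fit called 0, against 101 without the score. No fit combined the score with leaving out NBC male 2, so the part of these markers in the dependence on that library was not tested. For sPIA against NBC males the log2 change of Per1 was -0.2 (95% interval -0.45 to 0.05), and 0.05 without NBC male 2.

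In females Per1 had 69.9, 62, 58 and 73.2 CPM in sPIA, 74.9, 77.5, 85.2 and 78.9 CPM in mPIA, and 96.7, 75.6, 71.6 and 70.8 CPM in NBC. All sPIA females lay below all mPIA females, with sPIA female 4 and mPIA female 1 close together. The log2 change of -0.26 (SE 0.12) did not pass (edgeR adjusted p = 0.131), and was -0.11 after GC correction. Per1 varies over the day, with the hour of dissection not given in the sources used here.

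Sgk1 (GRCm38 chromosome 10, 21882184 to 21999903, plus strand), a kinase induced by both receptors, did not pass in any comparison. Among its several promoter windows, only the window shown above held the palindrome. Sgk1 had 79.4, 74.2, 70.2 and 69.7 CPM in sPIA females, 66.8, 67.5, 75.8 and 66.6 CPM in mPIA females, and 61.7, 80, 64.8 and 67 CPM in NBC females. In males it had 73.6, 52.6, 69.4 and 67.7 CPM in sPIA, 71.4, 70.4, 84.7 and 64.8 CPM in mPIA, and 74.4, 71.2 and 82 CPM in NBC. The groups overlapped in both sexes, and sPIA male 2 was again the lowest library. The log2 change for sPIA against NBC was 0.10 (95% interval -0.08 to 0.29) in females and -0.2 (-0.4 to 0) in males. The difference between these was 0.30 (SE 0.14), with an unadjusted p of 0.0361 and an edgeR adjusted p of 0.264.

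Zbtb16 (GRCm38 chromosome 9, 48654297 to 48836222, minus strand), a zinc finger repressor that responds strongly to glucocorticoids in many tissues, came close to the threshold in males. It had 43.1, 44.1, 44 and 46.2 CPM in sPIA males, 57, 70.8, 52.2 and 48.6 CPM in mPIA males, and 48.5, 52.2 and 51.7 CPM in NBC males. All sPIA males lay below all other males, and mPIA male 2 was the highest of the 23 libraries. On the log2 scale the change was -0.37 (SE 0.12, edgeR adjusted p = 0.0597) for sPIA against mPIA males, which passed with DESeq2 (-0.36, adjusted p = 0.0421). In females it had 41, 51.2, 50.8 and 51.6 CPM in sPIA, 54.7, 59.7, 40.6 and 39.7 CPM in mPIA, and 50, 44.7, 42.9 and 41 CPM in NBC. The mPIA females split into a high and a low pair, and the log2 change was 0.01 (95% interval -0.22 to 0.24) for sPIA against mPIA females.

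Ddit4 (GRCm38 chromosome 10, 59949669 to 59951834, minus strand) encodes REDD1, an inhibitor of mTORC1 signalling that is raised by hypoxia as well as by glucocorticoids. It had 73.5, 62.7, 72.9 and 66.3 CPM in sPIA females, 64, 69.9, 71 and 72.7 CPM in mPIA females, and 70.6, 62, 60.4 and 63 CPM in NBC females. In males it had 55.7, 53, 60.6 and 69.2 CPM in sPIA, 78.4, 55.8, 76.2 and 72.9 CPM in mPIA, and 80.9, 58.5 and 47.9 CPM in NBC. All groups overlapped, and the NBC males held both the highest and the lowest value of the 23 libraries. For sPIA against NBC the log2 change was 0.11 (95% interval -0.13 to 0.34) in females and -0.06 (-0.32 to 0.19) in males. For sPIA against mPIA it was -0.01 in females and -0.25 (SE 0.12, edgeR adjusted p = 0.217) in males.

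Cdkn1a (GRCm38 chromosome 17, 29090976 to 29100727, plus strand), the cell cycle inhibitor p21, which p53 also raises, was the gene with the lowest level and the widest relative range. It had 12.9, 18.13, 13.53 and 13.91 CPM in sPIA females, 18.9, 18.9, 20.2 and 18.1 CPM in mPIA females, and 17.9, 15, 15 and 17.3 CPM in NBC females. The mPIA females lay above all NBC females, and sPIA female 2 lay level with mPIA female 4, apart from the other sPIA females. The log2 change was -0.37 (SE 0.14, edgeR adjusted p = 0.0675) for sPIA against mPIA females, and -0.50 (edgeR adjusted p = 0.0241) without sPIA female 2, the sPIA female with the most choroid plexus RNA. In males it had 12.4, 15, 13.1 and 14 CPM in sPIA, 13.9, 9.81, 12.2 and 18.5 CPM in mPIA, and 15, 12.8 and 16.9 CPM in NBC, and the groups overlapped. An unconfirmed transcript, AC167363.2, lies on the opposite strand and shares 273 exon bases with Cdkn1a.

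The sexes were compared directly for the effect of each anemia level against NBC. For the mPIA effect, 0 of 10 genes differed between females and males, where 0% of all genes passed (0 by edgeR and 0 by DESeq2, with 1103 of 15475 genes under an unadjusted p of 0.05). Per1 was the 1 member under an unadjusted p of 0.05, with a difference of -0.42 (SE 0.17, edgeR adjusted p = 0.659), and without NBC male 2 it was -0.67 (edgeR adjusted p = 0.0238). For the sPIA effect, 0 of 10 differed, where 0.95% of all genes passed, and DESeq2 called 0 of the 10. There 2 members (Nr3c2 and Sgk1) were under an unadjusted p of 0.05, beside 2559 of 15475 genes. The difference for Nr3c2 was 0.31 (SE 0.15, edgeR adjusted p = 0.298) and for Nr3c1 0.21 (SE 0.10, edgeR adjusted p = 0.311). The receptor calls in females were thus not shown to differ from the males, and the difference between the sexes in sPIA against mPIA was not tested.

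**Figure D3:**
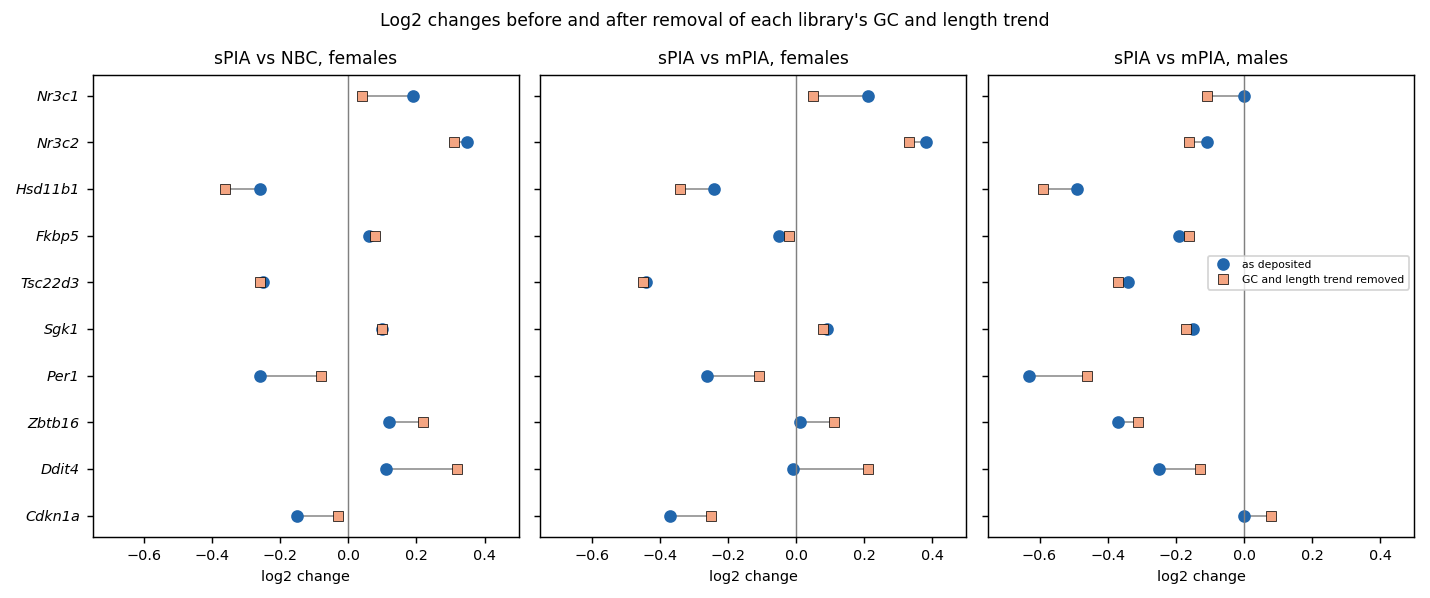
Log2 change (horizontal axes) of the 10 genes in sPIA against NBC females, sPIA against mPIA females and sPIA against mPIA males, on the counts as deposited (blue circles) and after GC correction (orange squares). Nr3c1 moves to 0.05 for sPIA against mPIA females, and Per1 to -0.46 for sPIA against mPIA males, while Tsc22d3 is at -0.45 for sPIA against mPIA females.

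GC correction moved members of low and of high GC content in opposite directions between sPIA and mPIA females. Nr3c1, with the lowest GC content, had a log2 change of 0.05 in place of 0.21 between sPIA and mPIA females, and Ddit4 (57.9% GC) had 0.21 in place of -0.01. Nr3c2 (47.5%) and Tsc22d3 (48.3%) changed little. The calls of Nr3c2 and Tsc22d3 in sPIA against mPIA females and of Hsd11b1 and Per1 in sPIA against mPIA males were the ones that passed either way.

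Of the receptor's chaperones and cofactors, 16 genes were tested. In sPIA against mPIA females 3 were higher and 0 lower, where 16.1% of all genes passed, led by Ptges3, the p23 cochaperone that stabilises the hormone-binding form of the receptor. Ptges3 had 86.75 ± 3.13 CPM in sPIA females, 60.7 ± 3.85 in mPIA females and 60.4 ± 4.9 in NBC females (SD, n = 4 each), and rose by 0.52 on the log2 scale (SE 0.08, edgeR adjusted p = 4.75e-05) against mPIA females. It was 0.46 after GC correction (edgeR adjusted p = 2.44e-05). In males it had 89.8 ± 6.7 CPM in sPIA (n = 4), 75.9 ± 2.24 in mPIA (n = 4) and 91 ± 12.9 in NBC (n = 3), and its sPIA effect differed between the sexes by 0.54 (SE 0.11, edgeR adjusted p = 0.0224). That call was lost with only the groups compared (edgeR adjusted p = 0.0815), with the choroid plexus score (edgeR adjusted p = 0.0684) and without NBC female 1, NBC male 4, sPIA female 3 or sPIA male 4 (edgeR adjusted p up to 0.0693). Between sPIA and mPIA males 1 of the 16 was higher and 1 lower, where 4.92% of all genes passed. The lower gene was Hspa8, a constitutive heat shock chaperone (-0.32, SE 0.08, edgeR adjusted p = 0.0234), which did not pass with only the groups compared (edgeR adjusted p = 0.0589) or without mPIA male 2 or 4 (edgeR adjusted p up to 0.0714).

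Among 14 tested genes for corticosteroid enzymes and stress peptides, 1 was higher and 2 were lower between sPIA and mPIA females, and 0 passed in males, where 16.1% and 4.92% of all genes passed. Crhbp, which binds corticotropin-releasing hormone and in the hippocampus is made largely by interneurons, had 14.5 ± 4.22 CPM in sPIA females, 27.9 ± 1.57 in mPIA females and 25 ± 3.68 in NBC females (SD, n = 4 each). Its log2 change was -0.94 (SE 0.17, edgeR adjusted p = 0.000709) against mPIA females. Crhr1, the receptor of that hormone, had 10.7 ± 0.915 CPM in sPIA females, 15.1 ± 1.09 in mPIA females and 16.3 ± 1.89 in NBC females, with a log2 change of -0.60 (SE 0.12, edgeR adjusted p = 0.0015) against NBC females. GC correction took this to -0.40 (edgeR adjusted p = 0.0229), and ended the call of Crhr1 against mPIA females (-0.28, edgeR adjusted p = 0.102). Among controls, Crhr1 was higher in NBC females than in NBC males by 0.54 (SE 0.13, edgeR adjusted p = 0.012). There 10.1% of all genes passed and the library code series run with sex. The sPIA effect on Crhr1, which is measured from these controls, differed between the sexes by -0.80 (SE 0.18, edgeR adjusted p = 0.0336). This call was lost with the replicate block (edgeR adjusted p = 0.0509), with only the groups compared (edgeR adjusted p = 0.0815) and with the choroid plexus score (edgeR adjusted p = 0.0928). It was also lost without NBC female 1 or 3, NBC male 4, sPIA female 3 or 4, or sPIA male 4 (edgeR adjusted p up to 0.0944). The 7 interneuron markers summed to 692 to 792 CPM in sPIA females, 848 to 941 in mPIA females and 851 to 930 in NBC females. In males they summed to 752 to 817 CPM in sPIA, 822 to 974 in mPIA and 816 to 918 in NBC. In bulk RNA fewer cells of a type and less RNA per cell cannot be told apart, and the part of interneurons in these results was not tested.

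A list of 34 other glucocorticoid response genes fell more often than it rose between severe and moderate anemia in each sex. The list was chosen with earlier results of these data known. Between sPIA and mPIA females 8 were lower and 1 higher, with a median log2 change of -0.28, beside 0 over all genes. There 16.1% of all genes passed, 1341 of them higher and 1158 lower. Between sPIA and mPIA males 8 were lower and 0 higher, with a median of -0.32, beside 0 over all genes. There 4.92% of all genes passed, 329 of them higher and 433 lower. Lower in both sexes were Arrdc2, Bcl6, Gjb6, Hif3a and Mt1, which are 62.5% of the female and 62.5% of the male list. The matching overlap over all genes was not computed, so that this share is not read as particular to the list. After GC correction 2 were lower in females and 4 in males, and leaving out 1 library gave 3 to 12 in females and 4 to 9 in males (in females fewest without mPIA female 1 or 2 and most without sPIA female 1, and in males fewest without sPIA male 2 or mPIA male 1). Arrdc2 and Mt1 were among those that GC correction ended in females (edgeR adjusted p = 0.0938 and 0.205), and Mt1 in females also did not pass with only the groups compared (edgeR adjusted p = 0.0833).

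Among the response genes with the smallest p in females were Mfsd2a, the lipid transporter of the blood-brain barrier, and Klf15, a metabolic transcription factor. Mfsd2a had 42.1 ± 4.31 CPM in sPIA females and 61.2 ± 5.4 in mPIA females (SD, n = 4 each), which was -0.54 on the log2 scale (SE 0.11, edgeR adjusted p = 0.000988). Klf15 had 12.2 ± 1.8 CPM in sPIA females and 19.2 ± 1.69 in mPIA females (SD, n = 4 each), which was -0.65 on the log2 scale (SE 0.13, edgeR adjusted p = 0.0011). Both also fell against NBC females, and both passed after GC correction.

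In males the smallest p belonged to Bcl6, a transcriptional repressor. It had 48.8 ± 6.74 CPM in sPIA and 70.1 ± 4.41 in mPIA (SD, n = 4 each), which was -0.52 on the log2 scale (SE 0.10, edgeR adjusted p = 0.00481). Fam107a, an actin regulator raised by stress, had 257 ± 25.4 CPM in sPIA males and 426 ± 61.8 in mPIA males (SD, n = 4 each), which was -0.73 on the log2 scale (SE 0.14, edgeR adjusted p = 0.00929). The metal-binding protein gene Mt1 had 56.3 ± 1.54 CPM in sPIA males and 79.7 ± 7.1 in mPIA males (SD, n = 4 each), which was -0.50 on the log2 scale (SE 0.11, edgeR adjusted p = 0.00989). Bcl6 was the only 1 of the 34 to pass between mPIA and NBC males (0.46, SE 0.11, edgeR adjusted p = 0.0387). That call was lost with the replicate block (edgeR adjusted p = 0.0691), with only the groups compared (edgeR adjusted p = 0.188) and with the choroid plexus score (edgeR adjusted p = 0.9). Of the 7 libraries left out in turn, it passed without NBC male 2 alone (0.61, edgeR adjusted p = 0.00156) and otherwise reached an edgeR adjusted p of up to 0.251. The median over the list was 0.12 for mPIA against NBC females, where 0 passed, and 0.09 for mPIA against NBC males. Against NBC it was -0.12 in sPIA females and -0.17 in sPIA males.

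**Figure D4:**
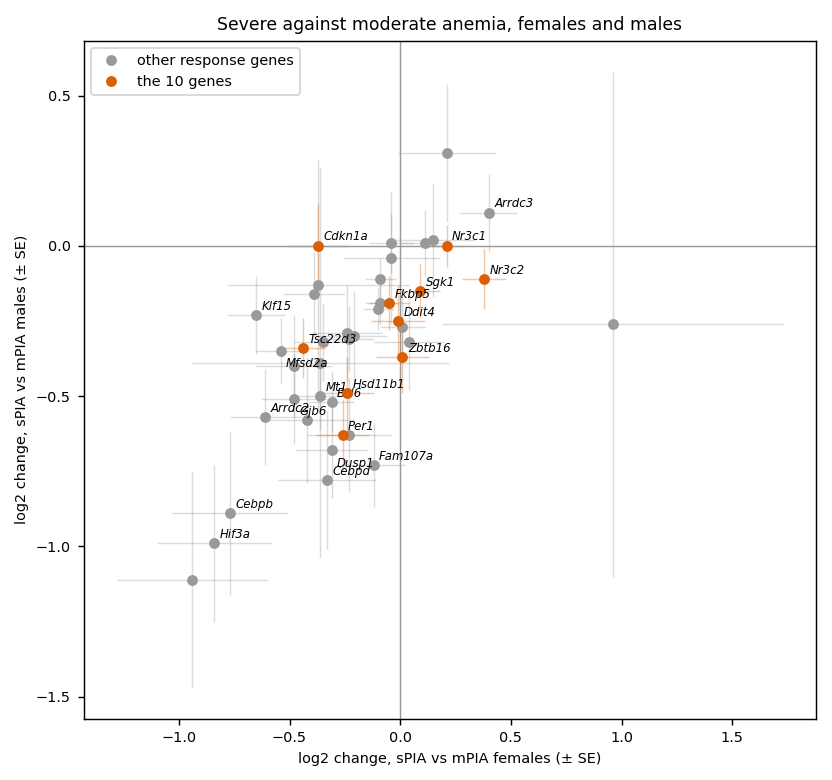
Log2 change with SE for sPIA against mPIA in females (horizontal axis) and in males (vertical axis), for the 10 genes (orange) and 34 other glucocorticoid response genes (grey), with names for the 10 genes and for the others that passed in either sex. Most points lie to the lower left of 0, and the receptors Nr3c1 and Nr3c2 lie to the right of 0 in females.

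Genes that share inputs with Per1 and Cdkn1a were read in the same way. Of 15 other clock genes, 3 were lower and 1 higher between sPIA and mPIA females, and 6 were lower between sPIA and mPIA males, where 16.1% of all genes passed in females and 4.92% in males. Bhlhe40, a clock repressor that hypoxia and activity also raise, had 60.4 ± 5.17 CPM in sPIA females and 85.3 ± 4.16 in mPIA females (SD, n = 4 each), which was -0.49 on the log2 scale (SE 0.08, edgeR adjusted p = 0.000203). In males it had 70 ± 9.3 CPM in sPIA and 98.3 ± 3.91 in mPIA (SD, n = 4 each), which was -0.49 on the log2 scale (SE 0.08, edgeR adjusted p = 0.0021). Of 17 immediate early genes, which neuronal activity raises, 6 were lower and 2 higher between sPIA and mPIA females, and 7 were lower between sPIA and mPIA males, beside the same 16.1% and 4.92% of all genes. Nr4a1, an activity-induced nuclear receptor, had 33 ± 1.48 CPM in sPIA males and 69.7 ± 4.82 in mPIA males (SD, n = 4 each), which was -1.08 on the log2 scale (SE 0.14, edgeR adjusted p = 0.000269). The part of neuronal activity or of handling in the values of Per1 was not tested.

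Of 12 other p53 targets, 2 were higher and 1 lower between sPIA and mPIA females, and 1 was lower between sPIA and mPIA males, again beside 16.1% and 4.92% of all genes. Of 16 hypoxia targets, 1 was higher and 1 lower between sPIA and mPIA females, 0 passed in males, and 4 were higher and 1 lower between sPIA and NBC females, where 16% of all genes passed. Adm, the hypoxia-induced peptide adrenomedullin, led the last with a log2 change of 1.77 (SE 0.24, edgeR adjusted p = 3.5e-05), while Ddit4 was at 0.11 there.

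Members were also compared within groups, by correlating deviations from the group mean over the 23 libraries. Of 45 pairs, 20 were positive, and 0 passed after Benjamini-Hochberg adjustment of within-group permutation p-values. The strongest pair was Per1 and Ddit4, with a Pearson r of 0.69 (adjusted permutation p = 0.12), a Spearman rho of 0.61 (adjusted permutation p = 0.236) and r = 0.52 without NBC male 2 and NBC female 1, the libraries farthest from the median of Per1. Tsc22d3 and Ddit4 followed, with r = 0.63 (adjusted permutation p = 0.12), a rho of 0.63 (adjusted permutation p = 0.236) and r = 0.51 without sPIA male 2 and mPIA male 2. The median r over the 45 pairs was -0.02.

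Outside the list, the genes whose log2 CPM followed each member most closely over the 23 libraries were sought among 13055 genes, as a description that shares library composition. Tsc22d3 was most like Mfsd2a (Pearson r = 0.85), Megf6 and Cebpb (0.83 each). Per1 was most like Lmtk3 and Fam65a (0.88 each) and Junb (0.87), and Ddit4 most like Arl4d and Supt5 (0.84 each). Nr3c1 was most like Aftph and Hif1a (0.89 each), and Nr3c2 most like Nckap1 and Prickle2 (0.91 each) and Gria1 (0.90). For Hsd11b1 the closest was Sp3os (0.89), for Sgk1 Susd6 (0.83), for Cdkn1a Ddx56 (0.79), for Zbtb16 Dapk1 (0.76) and for Fkbp5 Slc9a2 (0.74). Fkbp5 and Zbtb16 thus had the weakest likeness to any gene.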

How the data were processed

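Hippocampal polyadenylated RNA was isolated with the RNAqueous kit and made into TruSeq libraries, per the labels' protocols. The authors deposited whole-number read counts per gene, and the values bear no sign of normalization. The submitters' processing notes name mm10, FastQC, TopHat2 2.0.13, Subread and edgeR. Annotation, strandedness and handling of multiply mapped reads were not given in the sources used here. Groups came from the labels, and all columns were matched to libraries by name.

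All 23 libraries entered 1 fit with 6 group means in edgeR 4.0.16 (R 4.3.3, limma 3.58.1): TMM normalization, filterByExpr (minimum count 10, minimum total 15), robust quasi-likelihood fitting and Benjamini-Hochberg adjustment over 15475 genes at 0.05. CPM used TMM library sizes, and log2 CPM a prior count of 2. The test was checked on simulated counts. Alternatives were DESeq2 1.42.0, no filter, only the groups compared, the replicate number as a block, removal of the GC and length trend (natural splines, 14882 genes with values), a block of library code series for mPIA against NBC females, leaving out each library and, added after seeing the data, a choroid plexus score as covariate. Removal of the GC trend was applied to all members. Pairs of members were tested with 100000 within-group permutations (SciPy 1.17.1, Python 3.11.15). Figures were drawn with matplotlib 3.10.9. Positions come from GENCODE M21 (GRCm38, 23350 of 24421 rows matched) and promoters from RefSeq (GRCm38.p6). A further 27 rows named by a date stayed in library sizes and are not named.

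The members and the gene lists were chosen with earlier results of these data known. All members are described. Of each list, up to 4 called genes with the smallest p per comparison could be named. The response genes lower in both sexes were picked for naming once their values were known. Within-group pairs of libraries were further apart than counting noise (33 pairs, with 3.09 to 31.5 for chi-square over its degrees of freedom), so none was counted as a copy.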

Additional observations from a re-analysis of the deposited data

Results flagged for a closer look

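Of 50 sets of 4 libraries (10 genes in 5 groups), 3 held a library set apart from the other 3 by a wide gap, and chance alone flags about 1 set in 20. Nr3c2 in mPIA female 1 had 122.3 CPM, below the other mPIA females at 129.7 to 130.4 CPM. Sgk1 in mPIA female 3, the most deeply sequenced library, had 75.82 CPM, above the other mPIA females at 66.6 to 67.48 CPM. Zbtb16 in sPIA female 1 had 40.97 CPM, below the other sPIA females at 50.8 to 51.62 CPM. None of these genes was called in a comparison because of that library alone: Sgk1 and Zbtb16 were not called by edgeR in any comparison as reported. Without mPIA female 1, Nr3c2 was still called higher in sPIA than in mPIA females.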

How the results depend on the processing

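Of 550 log2 changes of the 10 genes under other settings, 501 kept their direction and their side of the threshold. A further 30 turned sign within 1 SE while uncalled, 9 lost a call, 6 gained one and 4 turned sign by more. Most comparisons of a member were uncalled as reported, and the 501 include values uncalled both ways. That number is therefore not the share of calls that were kept. With the GC and length trend removed, Ddit4 was 0.21 for sPIA against mPIA females and -0.16 for NBC females against NBC males, and Nr3c1 was -0.11 for sPIA against mPIA males. Outside the 10 genes, the clock gene Clock was 0 for sPIA against NBC females. As reported it was called higher there, at 0.21 (SE 0.07, edgeR adjusted p = 0.0298). The named genes of the other lists, all called as reported, had 499 values under other settings. Of these, 407 kept the call and 91 lost it. With the choroid plexus score, Ddit4 was -0.08 for mPIA against NBC males. DESeq2 called 1 of the 10 genes for mPIA against NBC males and 2 for sPIA against NBC females, and the fit with only the groups compared also called 2 for sPIA against NBC females. Removal of the GC and length trend called 0 for sPIA against NBC females and 0 for NBC females against NBC males. Between sPIA and mPIA, the number of members called was 2 to 4 in females and 2 to 4 in males over these settings, against 3 in each as reported. Apart from the GC trend, the cause was not tested.

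Leaving out 1 library at a time gave 1 to 3 members for sPIA against mPIA females, 1 to 3 for sPIA against mPIA males, 0 to 3 for sPIA against NBC females, 0 to 2 for mPIA against NBC males, 0 to 2 for NBC females against NBC males and 0 to 1 for the sex difference of the mPIA effect. It gave 0 for the other comparisons. Without NBC male 2, 2 members were called for mPIA against NBC males (Per1 and Ddit4). Of 830 log2 changes of members, 716 kept their direction and their side of the threshold, among them values uncalled both ways. A further 19 lost a call, 8 gained one, 84 turned sign within 1 SE while uncalled and 3 turned sign by more. Those that turned sign by more ran between -0.32 and 0.05 (Per1) and between -0.22 and 0.17 (Ddit4) for sPIA against NBC males, and between -0.12 and 0.18 (Cdkn1a) for sPIA against mPIA males.

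The libraries were not treated as paired by the replicate numbers in the labels. Same-numbered libraries of the same sex correlated at -0.08 to 0.15 across genes, in no pair of groups all above 0.1. Between mPIA and NBC females the range was 0.04 to 0.15, and the codes of both open with 86, 86, 90 and 91 in replicate order. What these openings stand for is not stated. A block of library code series called 0 members in that comparison. With the replicate block, 3 members were called in each of the sPIA against mPIA comparisons, 1 in sPIA against NBC females, 1 in NBC females against NBC males and 0 elsewhere, as without it. Over all genes the replicate block called 43 for mPIA against NBC males, 93 for the sex difference of the sPIA effect and 0 for mPIA against NBC females.

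Counts over all genes moved further. For mPIA against NBC males 101 genes were called as reported, 381 by DESeq2, 1 with only the groups compared, 0 with the choroid plexus score, and 0 to 1202 without single libraries. For sPIA against mPIA males 762 were called, 1220 by DESeq2, 307 with only the groups compared 244 with the GC trend removed and 231 to 1341 without single libraries. In females the same comparison called 2499, 1476 with the GC trend removed and 1582 to 2748 without single libraries. For sPIA against NBC females 2472 were called, 1220 with the GC trend removed and 1421 to 2692 without single libraries. For sPIA against NBC males 30 were called, 155 by DESeq2, 13 with the choroid plexus score, 5 with only the groups compared and 4 to 238 without single libraries. For NBC females against NBC males 1570 were called, 721 with the choroid plexus score, 647 with only the groups compared, 634 with the GC trend removed and 414 to 2114 without single libraries. The sex difference of the sPIA effect called 147 genes, 463 by DESeq2, 81 with the GC trend removed, 26 with the choroid plexus score, 5 with only the groups compared and 5 to 342 without single libraries. For mPIA against NBC females 1 gene was called, 2 with only the groups compared, 6 with the library code block and 0 with the GC trend removed. The other response genes called lower between sPIA and mPIA were 12 in females and 12 in males by DESeq2, against 8 in each as reported.

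The members had at least 213 counts in every library.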
